A study of Mus musculus with 115 samples.

Results

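A set of 10 genes of the endoplasmic reticulum were followed in mouse hearts that lack Ant1: Canx, Hspa5, Hsp90b1, Pdia3, Pdia4, Pdia6, Xbp1, Dnajb9, Sel1l and Herpud1. They are 10 of the 23930 genes on an amplicon panel and were picked by symbol, to sit beside Calr, whose own amplicon is almost lost in every heart without Ant1. All 10 were among the 15403 genes that passed the filter on low counts. The question was whether the loss of that calreticulin signal goes with a rise of other chaperones or of genes of the unfolded protein response.

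Wild type hearts were C57BL/6JEiJ. Ant1-/- hearts lacked Slc25a4, the gene of the adenine nucleotide carrier Ant1, on the same strain, and Ant1-/- ND6 hearts also carried the P25L change in the mitochondrial complex I subunit ND6. Every mouse had received 2.5e+11 vector genomes in the pericardium, either AAV2/9Des-Gfp-mAnt1 (the Ant1 vector) or AAV2/9Des-Gfp (the control vector), so no uninjected heart entered. With the control vector there were 4 wild type, 3 Ant1-/- and 3 Ant1-/- ND6 hearts. The Ant1 vector had gone to 3 wild type, 4 Ant1-/- and 3 Ant1-/- ND6 hearts in the groups tested. Another 2 Ant1-/- ND6 hearts (61 and 91), labelled with the control vector under a title code that elsewhere goes with the Ant1 vector, formed a group of their own. That group was not compared with another in the main fit, though it shared in the estimate of the spread. Hearts 61 and 91 also entered 1 of the sets of hearts that share count tables. Hearts had been taken 1, 3, 6, 9 or 12 months after injection, and the labels give no time, age or sex for a single heart. Nothing in the labels says that title numbers, read here as hearts, are separate animals, so p-values measure the spread between these sums of libraries. "Null hearts" below means the 13 hearts without Ant1 in the 4 groups tested, set against 7 wild type hearts.

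Counts summed to between 16827518 and 54779297 per heart. Levels are CPM, the counts of 1 amplicon per gene scaled to a common total count, and they do not compare between genes. The Slc25a4 amplicon lay at 8464 to 11380 CPM in wild type hearts, at 0.219 to 2.03 CPM in null hearts with the control vector and at 174 to 241 CPM in Ant1-/- hearts with the Ant1 vector. Of the Ant1-/- ND6 hearts labelled with the Ant1 vector, heart 5 had 66.7 CPM and heart 37 had 55.6 CPM, but heart 8 had 0.732 CPM, within the range of the control vector. Hearts 61 and 91, labelled with the control vector, had 169.1 and 151.3 CPM, far above that range and near the Ant1-/- hearts with the Ant1 vector. Hearts 27 and 37 shared count tables with no other heart. In whole hearts, fewer cells of a type and less RNA per cell cannot be told apart.

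Calreticulin and calnexin are lectin chaperones that hold newly made glycoproteins in the endoplasmic reticulum until they fold, and calreticulin also stores calcium there. When unfolded proteins build up, the sensors Ire1, Perk and Atf6 start the unfolded protein response. Atf6 and spliced Xbp1 bind the endoplasmic reticulum stress element (ERSE) in chaperone promoters and raise their transcription, while Perk slows translation and raises Atf4 and Ddit3. Most of the genes followed here are known targets of that response.

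The windows that follow are shown because they carry the element through which the response is known to act on chaperone genes. The ERSE is CCAAT, 9 bases of any kind, then CCACG, and it was searched on both strands between 250 bases before and 50 after each RefSeq gene start (GRCm38.p6). The ERSE was found in 39 of 32851 promoters (0.119%), among them those of 4 of the 10 genes, and also in that of Calr. A shorter form, ERSE-II (ATTGG, 1 base, CCACG), was found in 12 of 32851 promoters (0.0365%), and of the 10 genes only in Herpud1. Capitals mark the outer blocks of the element, and each window is written along the strand of its gene, so that elements on the opposite strand read from CGTGG to ATTGG.
Hspa5, chr2:34772005-34772063, plus strand: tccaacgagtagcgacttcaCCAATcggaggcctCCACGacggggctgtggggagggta
Hsp90b1, chr10:86705618-86705676, minus strand: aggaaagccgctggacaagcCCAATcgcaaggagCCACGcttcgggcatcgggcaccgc
Hsp90b1, chr10:86705513-86705571, minus strand: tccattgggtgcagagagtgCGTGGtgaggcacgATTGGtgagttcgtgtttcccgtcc
Canx, chr11:50325780-50325838, minus strand: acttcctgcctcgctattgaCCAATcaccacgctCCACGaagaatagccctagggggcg
Pdia6, chr12:17266471-17266529, plus strand: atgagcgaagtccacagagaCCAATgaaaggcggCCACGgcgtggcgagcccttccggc
Calr, chr8:84847055-84847113, minus strand: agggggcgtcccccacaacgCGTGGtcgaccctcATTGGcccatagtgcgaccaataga
Herpud1, chr8:94386357-94386407, plus strand: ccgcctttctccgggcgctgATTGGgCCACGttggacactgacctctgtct
The elements begin 65 bases before the gene start in Hspa5, 212 and 107 in Hsp90b1, 145 in Canx, 98 in Pdia6, 162 in Calr and 52 in Herpud1. A match of letters is a description of the window, and no match in the other promoters says only that these letters are not in it.

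The Calr amplicon fell in null hearts by 7.43 on the log2 scale (SE 0.0996, adjusted p = 6.33e-23). Its mean level was 523.9 ± 31.2 CPM in the wild type hearts (SD, n = 7), and in the null hearts it was 3.09 ± 0.664 CPM (SD, n = 13). The null hearts still held 66 to 183 counts each, between 2.43 and 4.58 CPM, and the wild type hearts 8636 to 18662 counts, between 492.1 and 576.5 CPM. Null hearts with the Ant1 vector stayed in this low range, as did hearts 61 and 91 at 3.33 and 3.87 CPM. What part of the transcript the amplicon reads was not used here, so the values speak of the amplicon and not of calreticulin protein.

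None of the 10 genes rose in null hearts, and 9 of the 10 fell, by 0.25 to 0.62 on the log2 scale. The genes that fell were Hspa5, Hsp90b1, Canx, Pdia3, Pdia4, Pdia6, Xbp1, Dnajb9 and Herpud1, and the exception was Sel1l. Over all tested genes 15.6% were called higher and 14.5% lower in this comparison. The median log2 change of the 10 genes was -0.33, beside -0.02 over all tested genes. The falls are small next to that of Calr: for none of the 10 did all 13 null hearts lie below all 7 wild type hearts, which was so for 1.25% of tested genes, Calr among them. DESeq2 and limma voom on single libraries also called 9, but the shares of all tested genes that these fits called are not given here. The voom fit counts libraries of 1 heart nearly as separate units (within-heart correlation 0.221). Its p-values can therefore be smaller than hearts alone would give.

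**Figure D1:**
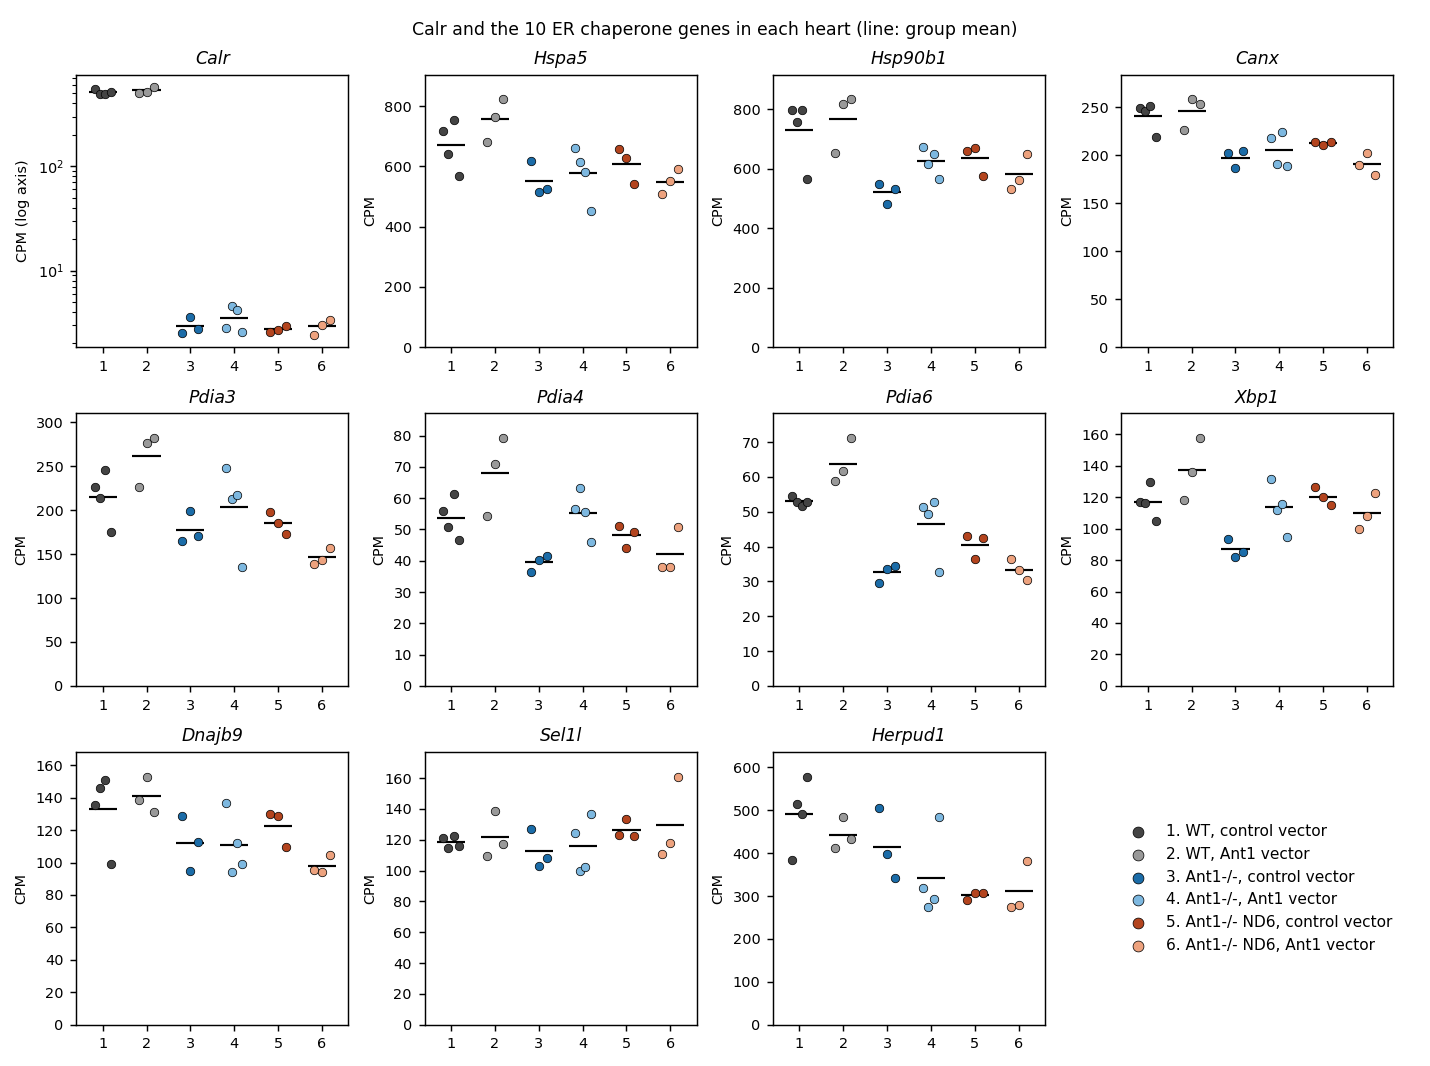
CPM of Calr (log axis) and of the 10 chaperone genes (linear axes from 0) in each heart, with groups 1 to 6 named in the key and a line at each group mean. Calr separates wild type from null hearts without overlap, while the other genes shift by less than the range of their own values.

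Hspa5 encodes BiP, the main Hsp70 of the endoplasmic reticulum, which holds the stress sensors inactive until unfolded proteins draw it away. Its level in wild type hearts with the control vector was 718.8, 641.4, 755.2 and 568.7 CPM, and with the Ant1 vector 682.5, 765.1 and 823.2 CPM. Ant1-/- hearts had 619.5, 513.7 and 524.5 CPM with the control vector and 660.1, 613.7, 582.9 and 452.8 CPM with the Ant1 vector. Ant1-/- ND6 hearts had 659.4, 629.5 and 540.6 CPM with the control vector and 508.2, 551.0 and 590.7 CPM with the Ant1 vector. The lowest wild type heart (70) lies in the midst of the null hearts, and 6 of the 13 null hearts lie below it. Hspa5 fell in null hearts by 0.32 on the log2 scale (SE 0.0734, adjusted p = 0.0024), with a 95% interval from -0.47 to -0.165.

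Hsp90b1 encodes Grp94, the Hsp90 of the same compartment. In wild type hearts it had 799.1, 757.4, 797.8 and 565.5 CPM with the control vector and 653.6, 819.2 and 834.0 CPM with the Ant1 vector. In Ant1-/- hearts it had 547.3, 481.6 and 533.0 CPM with the control vector and 674.4, 615.1, 651.4 and 566.0 CPM with the Ant1 vector. In Ant1-/- ND6 hearts the values ran from 532.4 to 669.5 CPM. Apart from heart 70, all wild type hearts but heart 80 lay above all null hearts. The fall in null hearts was 0.35 on the log2 scale (SE 0.0707, adjusted p = 0.000832).

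Canx encodes calnexin, the membrane-bound partner of calreticulin, and is the gene whose rise would stand most directly in calreticulin's place. It had 249.3, 246.6, 251.1 and 218.6 CPM in wild type hearts with the control vector and 226.6, 258.3 and 253.0 CPM with the Ant1 vector. Ant1-/- hearts had 202.0, 186.6 and 203.9 CPM, and with the Ant1 vector 217.6, 191.3, 224.1 and 188.9 CPM. Ant1-/- ND6 hearts had 214.0, 210.2 and 213.9 CPM, and with the Ant1 vector 190.0, 202.4 and 179.7 CPM. Only Ant1-/- heart 22 with the Ant1 vector reached into the wild type range, and the other 12 null hearts lay below every wild type heart. Canx fell in null hearts by 0.27 on the log2 scale (SE 0.0484, adjusted p = 0.000199), 1.21-fold, with a 95% interval from -0.376 to -0.174.

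Among the disulfide isomerases, Pdia6, which also binds BiP and the sensor Ire1, had the largest fall of the 10 genes. Wild type hearts had 54.6, 52.6, 51.6 and 52.9 CPM with the control vector and 58.7, 61.6 and 71.1 CPM with the Ant1 vector. Ant1-/- hearts had 29.6, 33.5 and 34.5 CPM with the control vector and 51.4, 49.5, 52.6 and 32.8 CPM with the Ant1 vector. Ant1-/- ND6 hearts had 43.0, 36.3 and 42.3 CPM with the control vector and 36.4, 33.2 and 30.5 CPM with the Ant1 vector. Here too 12 of 13 null hearts lay below every wild type heart, and the exception was again Ant1-/- heart 22 with the Ant1 vector. Pdia6 fell by 0.62 on the log2 scale (SE 0.0814, adjusted p = 6.75e-06), which is 1.54-fold. Pdia3 (ERp57, which works on glycoproteins held by calnexin and calreticulin) had 235.2 ± 37.0 CPM in 7 wild type and 180.2 ± 33.9 CPM in 13 null hearts and fell by 0.42 (SE 0.0904, adjusted p = 0.00123). Pdia4 (ERp72) had 59.8 ± 11.6 and 47.0 ± 8.25 CPM and fell by 0.40 (SE 0.0823, adjusted p = 0.000929). For each of Pdia3 and Pdia4, 7 of 13 null hearts lay below all wild type hearts.

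Xbp1 encodes the factor that Ire1 splices, and the counts here do not tell its spliced from its unspliced form. It had 125.7 ± 17.3 CPM in 7 wild type and 108.1 ± 15.9 CPM in 13 null hearts and fell by 0.25 on the log2 scale (SE 0.067, adjusted p = 0.00803). The group order was uneven: Ant1-/- hearts with the control vector had 93.1, 82.2 and 85.0 CPM, below every other heart. The next was Ant1-/- heart 27 with the Ant1 vector at 94.7 CPM. Ant1-/- ND6 hearts with the control vector had 126.3, 119.8 and 114.8 CPM, among the wild type values with that vector of 105.0 to 129.7 CPM. Dnajb9 encodes ERdj4, a partner of BiP that holds Ire1 in check. It had 136.3 ± 18.2 CPM in wild type and 110.9 ± 15.6 CPM in null hearts and fell by 0.31 (SE 0.0838, adjusted p = 0.00814), with 4 of 13 null hearts below all wild type hearts.

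Sel1l and Herpud1 belong to the complex that sends misfolded proteins back to the cytosol for degradation. Sel1l, its scaffold, had 120.1 ± 9.20 CPM in wild type and 120.8 ± 17.0 CPM in null hearts, a log2 change of 0.01 (SE 0.0779, adjusted p = 0.952) with a 95% interval from -0.154 to 0.17. Herpud1, an adaptor of that complex and a sensitive target of the stress response, had 383.8, 513.9, 490.4 and 577.4 CPM in wild type hearts with the control vector and 411.0, 484.0 and 434.0 CPM with the Ant1 vector. Ant1-/- hearts had 505.1, 397.8 and 342.0 CPM, and with the Ant1 vector 318.1, 273.9, 294.0 and 484.9 CPM. Ant1-/- ND6 hearts had 289.9, 307.2 and 307.4 CPM, and with the Ant1 vector 274.1, 278.3 and 381.4 CPM. The 10 null hearts other than Ant1-/- hearts 35, 36 and 27 lay below all wild type hearts, and Herpud1 fell by 0.46 on the log2 scale (SE 0.107, adjusted p = 0.00265).

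Herpud1 lies on chromosome 8 (94386429 to 94395371, GRCm38.p6), as do Calr (84842088 to 84846931) and the deleted gene Slc25a4 (46207168 to 46211062), and the other 9 genes lie elsewhere. On chromosome 8, 293 of 748 tested genes with a position were called in null hearts (39.2%), against 29.8% of those on other chromosomes. Of the 5 tested genes on each side of Herpud1, 2 of 10 were called: Bbs2 fell by 0.34 on the log2 scale (adjusted p = 0.00237) and Nup93 rose by 0.16 (adjusted p = 0.0181). Around Calr 6 of 10 were called, and among them Gm38426 rose by 1.56 on the log2 scale (adjusted p = 3.94e-09). Whether linkage to the deleted gene has a part in the Herpud1 value was not tested.

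Most null hearts shared none of the count tables, each of 8 libraries, with a wild type heart, and 3 sets of tables held both. Heart 35 (Ant1-/-) beside wild type hearts 23, 24 and 25 had 8 of the 10 genes lower, with a median log2 difference of -0.338. Ant1-/- heart 20 with the Ant1 vector beside wild type hearts 80, 81 and 83 had 9 of 10 lower, with a median of -0.177. Ant1-/- ND6 hearts 22, 61 and 91 beside wild type heart 70 had 4 of 10 lower, with a median of 0.00292. There Pdia6 and Herpud1 were lower while the others were within 0.16 of 0. Over all tested genes, 52.0% were lower in the set of heart 35 and 49.8% in that of Ant1-/- heart 20. The share in the set of wild type heart 70 lay between these values. The medians over all tested genes were -0.0151, 0.000807 and -0.000303, in the same order of sets. With the library table in the model, in limma voom on single libraries, 7 genes were called in null hearts, all lower, where 12.2% of tested genes were lower in the same fit. In that fit Xbp1 (log2 change -0.10, adjusted p = 0.382) and Dnajb9 (log2 change -0.05, adjusted p = 0.708) no longer passed. Pdia6 changed by -0.58 (adjusted p = 3.28e-09) and Canx by -0.22 (adjusted p = 0.0119). The within-heart correlation in that fit was 0.176, so these p-values too can be smaller than hearts alone would give.

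**Figure D2:**
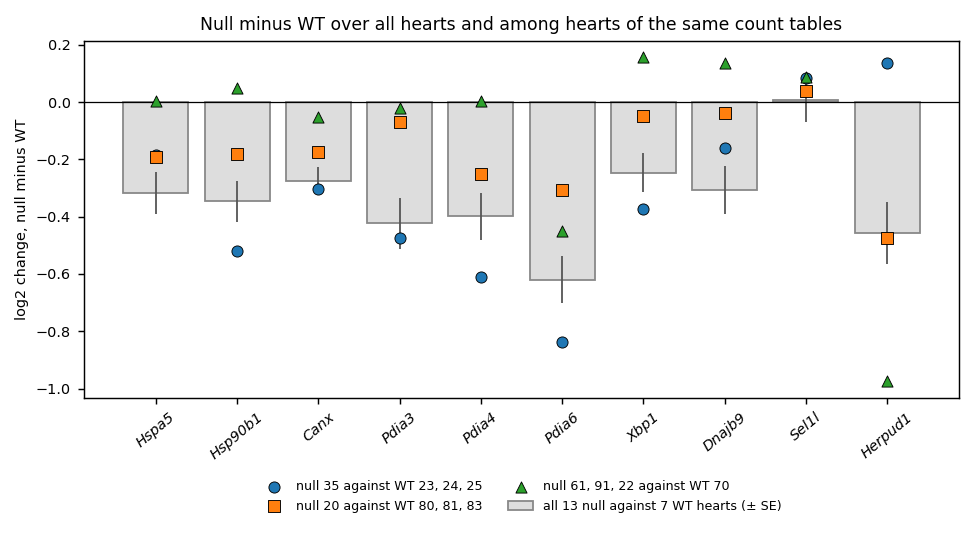
Log2 change of each of the 10 genes between null and wild type hearts, as grey bars with SE for all 13 null against 7 wild type hearts, and as symbols for the 3 sets of hearts that share count tables. The set of wild type heart 70 includes hearts 61 and 91, which are not among the 13 null hearts. Pdia6 is the gene that lies below 0 by more than 0.3 in all 3 sets, while Sel1l lies near 0 throughout.

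With the control vector, Ant1-/- against wild type hearts called 0 of the 10 genes higher and 5 lower, where 8.19% of tested genes were higher and 6.23% lower. The 5 were Pdia6 (log2 change -0.70, SE 0.136, adjusted p = 0.0013), Hsp90b1 (-0.49, SE 0.117, adjusted p = 0.00699), Xbp1 (-0.43, SE 0.11, adjusted p = 0.0111), Canx (-0.29, SE 0.0793, adjusted p = 0.0167) and Pdia4 (-0.44, SE 0.136, adjusted p = 0.032). Without Ant1-/- heart 36 this count was 2, and Pdia6 and Hsp90b1 passed whichever heart was left out. Adding the liver marker sum or Xist to the model also left 2. Xist was near the floor in every heart, at most 1.76 CPM, and the Y-linked Ddx3y ran from 196.1 to 273 CPM. The Xist term therefore does not adjust for a difference of sex. In limma voom on single libraries with the library table in the model, 0 were higher and 7 lower. In that fit 10.2% of tested genes were higher and 8.75% lower, and its p-values can be smaller than hearts alone would give. With the Ant1 vector 0 were higher and 3 lower (Pdia6, Canx and Hspa5), where 5.37% of tested genes were higher and 4.53% lower. That count was 0 without wild type heart 81 or 83, 1 without Ant1-/- heart 21 or 27, and 5 without Ant1-/- heart 20. With the library table in the model none of these 3 passed (Pdia6 adjusted p = 0.0514, Hspa5 0.116 and Canx 0.243), and the 1 gene called, where 4.44% of tested genes were lower, was Herpud1 (log2 change -0.51, adjusted p = 0.000228).

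Ant1-/- ND6 against wild type hearts with the control vector called 0 genes higher and 1 lower, where 6.71% of tested genes were higher and 5.97% lower. The gene was Herpud1, with 301.5 ± 10.0 CPM in 3 hearts and 491.4 ± 80.6 CPM in 4 wild type hearts, a log2 change of -0.70 (SE 0.178, adjusted p = 0.012), and it did not pass without Ant1-/- ND6 heart 20. With the Ant1 vector 0 were higher and 7 lower, where 10.8% of tested genes were higher and 8.71% lower. The 7 were Pdia6 (-0.94, SE 0.144, adjusted p = 0.000142), Pdia3 (-0.84, SE 0.159, adjusted p = 0.000954), Pdia4, Canx, Hspa5, Dnajb9 and Hsp90b1. With the library table in the model that count was 3 (Pdia4, Pdia6 and Herpud1), where 6.41% of tested genes were lower. No wild type heart with the Ant1 vector shares a table with an Ant1-/- ND6 heart.

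**Figure D3:**
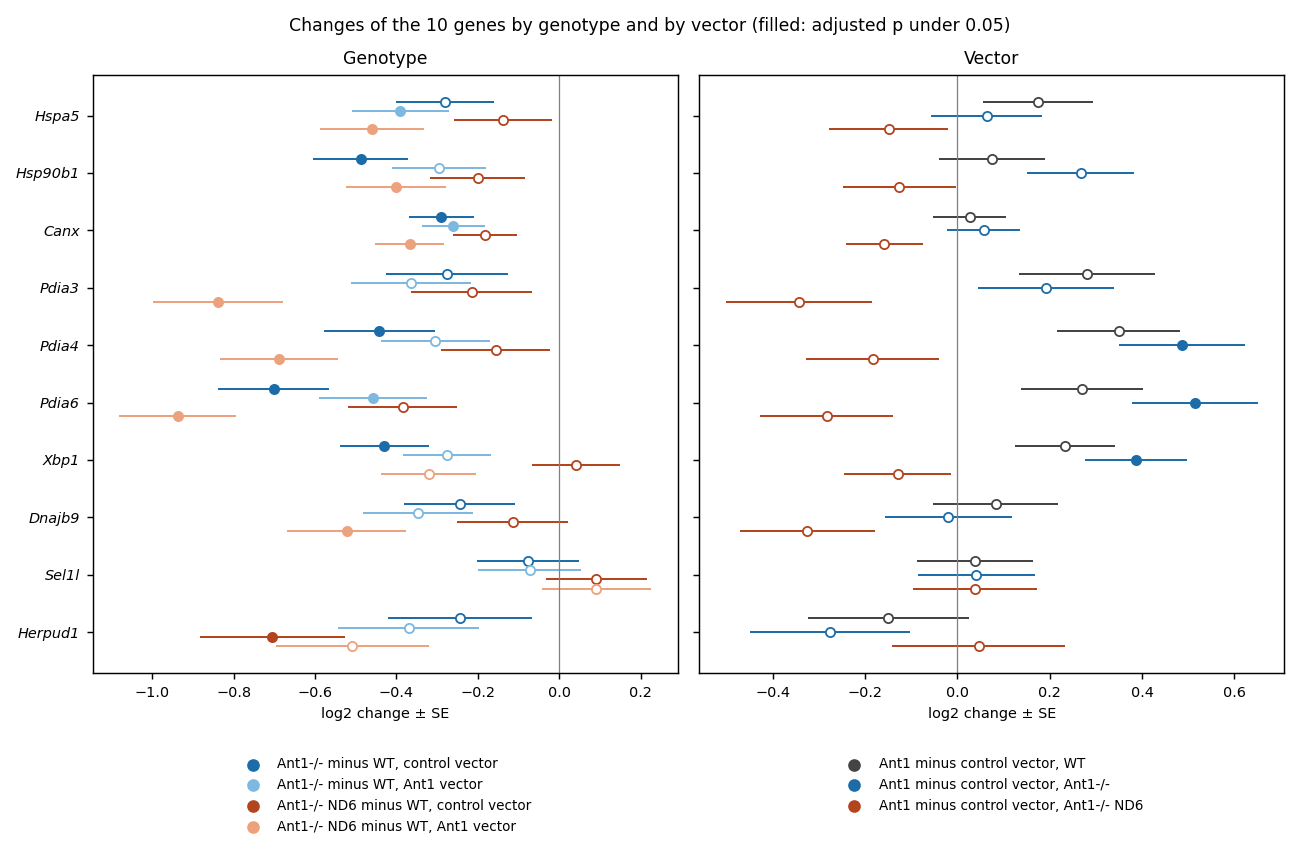
Log2 changes with SE of the 10 genes between genotypes (left) and between vectors (right), filled where the adjusted p is under 0.05. All filled points on the left lie below 0, and the filled points on the right are Pdia4, Pdia6 and Xbp1 in Ant1-/- hearts.

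Between the 2 null genotypes with the control vector, Xbp1 stood nearest to a difference. Xbp1 was higher in all Ant1-/- ND6 hearts, but so were Canx, Hsp90b1, Pdia4 and Pdia6, while Herpud1 was lower in all of them. EdgeR called 0 of 10 between these groups, where 1.06% of tested genes were called. An unadjusted p under 0.05 was seen for 4 of 10, and for 2231 of all 15403 tested genes. DESeq2 called 1 and voom on single libraries 2. Xbp1 had 120.3 ± 5.77 against 86.8 ± 5.65 CPM (SD, n = 3 each), a log2 change of 0.47 (SE 0.117, adjusted p = 0.0527). Ant1-/- ND6 hearts 20 and 21 lie in the same tables as Ant1-/- hearts 36 and 38, and there 9 of 10 genes were higher in the ND6 hearts, 8 of them without overlap, with a median log2 difference of 0.25. Over all tested genes 23.4% had both ND6 hearts above both Ant1-/- hearts there, and the median difference was -0.00911. There Xbp1 was 1.47-fold and Hsp90b1 1.31-fold higher, and Herpud1 was lower (298.6 against 369.9 CPM). With the library table in the model 8 were called: Hspa5, Hsp90b1, Pdia4, Pdia6, Xbp1, Dnajb9 and Sel1l higher and Herpud1 lower, where 5.67% of tested genes were higher and 6.98% lower in the same fit. That fit counts libraries of 1 heart nearly as separate units (within-heart correlation 0.176), and this can make its p-values smaller than hearts alone would give. Among hearts with the Ant1 vector edgeR called 0 of 10, where 1.66% of tested genes were called, with 2 called by DESeq2 and 3 by voom on single libraries. There 3 of 10 had an unadjusted p under 0.05, as had 2534 of all 15403 tested genes. In the tables shared by Ant1-/- ND6 hearts 5 and 8 and Ant1-/- hearts 21 and 22, 9 of 10 were lower in the ND6 hearts, with a median of -0.155. In those shared by hearts 37 and 27, 7 of 10 were higher, with a median of 0.172, in 1 heart against 1. Over all tested genes 50.3% were lower in the set of hearts 5, 8, 21 and 22. In the set of hearts 37 and 27, 50.1% were higher.

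The Ant1 vector against the control vector called 3 genes higher and 0 lower in Ant1-/- hearts, where 2.19% of tested genes were higher and 3.27% lower. Pdia6 had 46.6 ± 9.27 CPM in 4 hearts with the Ant1 vector and 32.6 ± 2.56 CPM in 3 with the control vector, a log2 change of 0.51 (SE 0.136, adjusted p = 0.0316). Pdia4 had 55.3 ± 7.03 against 39.4 ± 2.62 CPM, a change of 0.49 (SE 0.136, adjusted p = 0.0415), and Xbp1 had 113.5 ± 15.2 against 86.8 ± 5.65 CPM, a change of 0.39 (SE 0.11, adjusted p = 0.0441). All 3 calls were lost when any of hearts 20, 21, 22, 35, 36 or 38 was left out, and when only these 2 groups were fitted. In the groups tested, no count table holds both vectors within any genotype, so the vector and the table cannot be told apart. In Ant1-/- ND6 hearts 0 of 10 were called, where 2.53% of tested genes were, with 0 called by DESeq2 and 1 by voom on single libraries. Here 2 of 10 had an unadjusted p under 0.05, as had 3008 of all 15403 tested genes. In wild type hearts 0 of 10 were called, where 0.117% of tested genes were, with 0 called by DESeq2 and 1 by voom on single libraries. An unadjusted p under 0.05 was seen for 2 of 10, and for 1795 of all 15403 tested genes.

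Tests of the differences between these effects called little. Whether the genotype effect differed between vectors was tested for Ant1-/- hearts, with 0 of 10 genes called where 0.5% of tested genes were. DESeq2 and voom on single libraries called 0 as well. There 0 of 10 had an unadjusted p under 0.05, against 2259 of all 15403 tested genes. The same test for Ant1-/- ND6 hearts called 0 of 10 where 0.273% of tested genes were, with 0 called by DESeq2 and 3 by voom on single libraries. Here 4 of 10 had an unadjusted p under 0.05, as had 1615 of all 15403 tested genes. Whether the vector effect differed between the null genotypes, a test chosen after the values were seen, called 1 of 10 where 1.42% of tested genes were. That gene was Pdia6, whose vector effect was 0.80 lower on the log2 scale in Ant1-/- ND6 than in Ant1-/- hearts (SE 0.198, adjusted p = 0.0464). Of 13 fits that each left out 1 heart, it passed in 1, the adjusted p ran from 0.00171 to 0.134, and DESeq2 gave 0.00705.

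Other genes of the compartment were counted from lists drawn up with earlier results of these data known, and each count is to be read beside the 15.6% of all tested genes that were higher and the 14.5% that were lower in null hearts. Of 26 other chaperones and folding enzymes tested, 2 rose and 9 fell in null hearts, with a median log2 change of -0.16. Sdf2l1, a part of the BiP chaperone complex, had 16.9 against 28.9 CPM and fell by 0.86 (SE 0.116, adjusted p = 1.05e-05). Manf, a secreted stress-induced protein that binds BiP, fell by 0.62 (adjusted p = 0.000339), and Tmx1, a membrane-bound thioredoxin, by 0.45 (adjusted p = 0.000259). Of 19 genes of the calnexin and calreticulin cycle 4 fell and the rest did not pass the test. The 4 were Calr, Stt3a (0.26 lower), Calr3 (0.31 lower) and Uggt2. Of 25 genes of degradation from the endoplasmic reticulum, 3 rose and 6 fell, with a median of -0.01. Edem3 fell by 0.38. Ubxn8, a partner of the p97 ATPase, had 0.048 CPM in null hearts against 11.7 CPM in wild type (adjusted p = 4.04e-17). It was at most 0.098 CPM in any null heart and at least 10.3 CPM in wild type. This is a near-complete loss like that of Calr, and its cause was not tested.

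Of 15 sensors and transcription factors of the stress response tested, 3 rose and 1 fell in null hearts, with a median of -0.02, so the share that rose was near the 15.6% of all tested genes. Ern1, which encodes Ire1, had 24.9 against 17.8 CPM and rose by 0.45 on the log2 scale (SE 0.0638, adjusted p = 1.92e-05). Atf4 rose by 0.24 (SE 0.0716, adjusted p = 0.0154), and Ddit3, the factor Chop, by 0.35 (SE 0.131, adjusted p = 0.0479), while Mbtps2, the protease that frees Atf6, fell by 0.26 (adjusted p = 0.00137). In Ant1-/- ND6 hearts with the control vector Ddit3 had 95.9 against 52.4 CPM in wild type and rose by 0.87 (adjusted p = 0.00799), and in Ant1-/- hearts it had 52.1 CPM (adjusted p = 0.984 against wild type). In Ant1-/- ND6 hearts with the Ant1 vector it had 51.6 CPM, a log2 change of -0.90 against the control vector (adjusted p = 0.0351). All 3 of those hearts lay between 41.2 and 63.0 CPM, among them heart 8, whose Slc25a4 level was 0.732 CPM. No count table holds both vectors in this genotype, so the vector and the table cannot be told apart. Of 19 targets of Perk and Atf4, 4 rose and 4 fell, with a median of -0.12, both shares near the 15.6% and 14.5% of all tested genes. Cars rose by 0.42 (adjusted p = 0.000409), while Asns fell by 0.84 (adjusted p = 0.000104) and Psat1 by 0.56 (adjusted p = 0.000629).

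**Figure D4:**
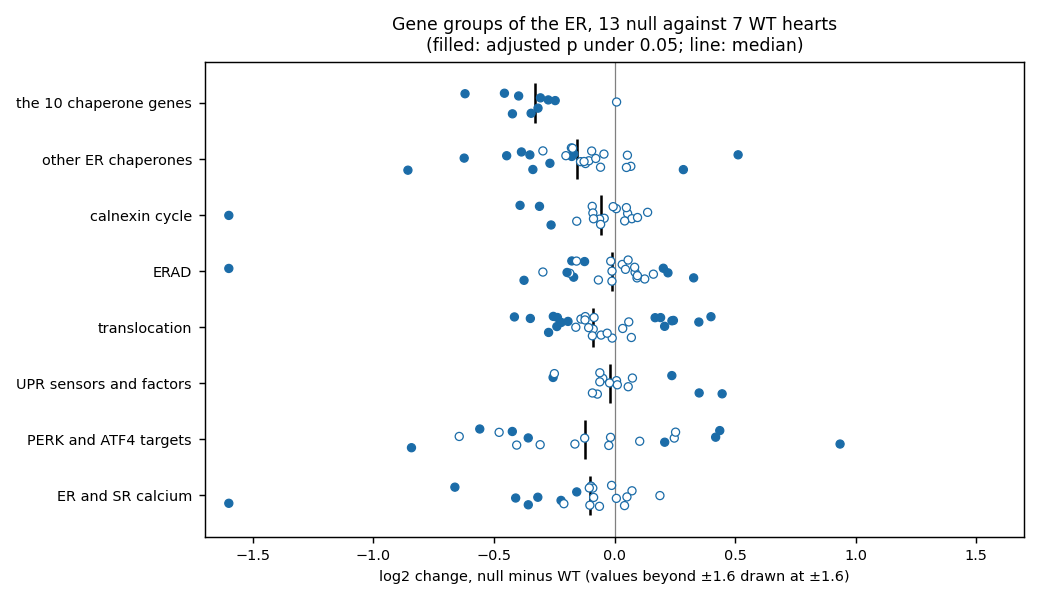
Log2 change in null against wild type hearts of each tested gene in 8 groups of the endoplasmic reticulum, filled where the adjusted p is under 0.05, with a line at each group's median. The 10 chaperone genes have a median of -0.33, while the sensors and factors have a median of -0.02 with filled points on both sides, and values beyond 1.6 in either direction are drawn at 1.6.

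Of 29 genes of translocation and export, 7 rose and 8 fell, with Srp19 0.35 higher (adjusted p = 9.26e-05) and Tram1 0.35 lower (adjusted p = 1.83e-05). Of 20 genes of calcium binding and transport in the endoplasmic and sarcoplasmic reticulum, 7 fell, the rest did not pass, and the median was -0.10. Casq1, a calcium-storing calsequestrin, fell by 2.43 (2.41 against 12.6 CPM, adjusted p = 8.75e-10), Rcn2 by 0.32 (adjusted p = 8.21e-05) and Atp2a2, the calcium pump Serca2, by 0.22 (adjusted p = 0.000862). Of 9 cytosolic heat shock genes 1 rose, Cryab by 0.51 (adjusted p = 7.58e-07), and the rest did not pass. Between the null genotypes with the control vector, the near-identical Hspa1b and Hspa1a, whose reads may be shared, had 40.1 and 12.9 CPM in Ant1-/- ND6 against 6.34 and 2.30 CPM in Ant1-/- hearts (adjusted p = 0.000967 and 0.00846).

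Markers of other cells moved with some of these groups, and their part in the falls was not tested. The 10 cardiomyocyte markers summed to 96130 to 115500 CPM in wild type hearts with the control vector and to between 105300 and 122000 CPM in the null groups, with 1 called higher and 1 lower. The 10 fibroblast markers, cells rich in secretory proteins, summed to 1761 to 1840 and 1603 to 1619 CPM in the wild type groups and to 1296 to 1799 CPM over the null groups, with 1 called higher and 4 lower. In null hearts Col3a1 was the higher one, and Fbln1, Dpt, Pdgfra and Dcn were lower by 0.49, 0.44, 0.36 and 0.20 on the log2 scale. In Ant1-/- against wild type hearts with the control vector 5 of the 10 were called lower, Dcn with 845.2 against 1134 CPM, Dpt with 143.5 against 224.9 CPM, Fbln1 with 30.8 against 52.1 CPM, Pdgfra with 14.4 against 20.7 CPM and Tcf21 with 8.03 against 12.3 CPM, in the comparison that called 5 of the chaperone genes lower. Col1a1 and Col1a2 were called in neither comparison. The 10 endothelial markers had 4 called higher and 1 lower, and of 9 macrophage markers tested 0 were higher and 5 lower, with group sums between 305.5 and 558.8 CPM. Of 7 smooth muscle and pericyte markers 1 was higher and 3 lower. Of 8 B and plasma cell markers, cells with abundant chaperones, 4 were higher and 0 lower, with sums of 9.99 to 75.9 CPM. Liver genes summed to 76.0 to 378.6 CPM in wild type hearts with the control vector, with Alb from 0.248 to 159.1 CPM, against 12.4 to 116.1 CPM in all other groups, and adipocyte markers had 0 higher and 1 lower. The 12 immediate early genes, which rise with handling of tissue, were all called higher in Ant1-/- ND6 hearts with the Ant1 vector against wild type, with sums of 691.0 to 2561 CPM against 316.6 to 432.0 CPM, in the comparison that called 7 of the chaperone genes lower.

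After the group means were subtracted, the 10 genes varied together across the 22 hearts to differing degrees. Pearson's r over the 45 pairs had a median of 0.464 and ran from -0.752, for Pdia6 with Herpud1, to 0.884, for Hspa5 with Xbp1. Among Canx and the 5 lumenal chaperones and isomerases it ran from 0.277 to 0.831. Herpud1 had a median r of -0.296 with the other 9 genes. Of 8129 genes with at least 10 CPM, those most like Hspa5 were Creld2 (0.908), Vcan (0.897) and Xbp1 (0.884), and most like Pdia4 was Sdf2l1 (0.877). Manf (0.913) was second for Pdia3, behind Kitl (0.921). Those most like Herpud1 were Sgms1 (0.931), Fbxo32 (0.929) and Lrp5 (0.918), and for Sel1l Tab2 (0.968). These correlations share libraries, depth and count tables and are descriptions only.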

How the data were processed

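The deposited files give raw counts for each amplicon. Per the labels, libraries were prepared with an AmpliSeq kit and sequenced on an Ion Torrent S5. The submitters' processing notes name mm10; the aligner, the counter and any filter were not given in the sources used here. In 14 tables of 8 libraries there were 112 bulk libraries, and 3 single-nucleus samples were not analysed here. Date-like symbols were restored for 27 amplicons.

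Libraries with the same title number, genotype and title code were summed as 1 heart, an interpretation of the titles. Libraries 80a and 80b, labelled with another vector than 80c and 80d, were left out. The 7 groups were fitted together in edgeR 4.0.16 (R 4.3.3): filterByExpr, TMM scaling (factors 0.959 to 1.058), quasi-likelihood F-test, Benjamini-Hochberg over all 15403 genes, threshold 0.05. CPM use TMM-scaled totals. The SE is the log2 change divided by the square root of F, and 95% intervals use the test's degrees of freedom. Null against wild type compares the mean of 4 null with the mean of 2 wild type group coefficients. The test was tried on simulated data. How far the total count per heart limits precision was not tested.

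Genes named are the 10 members, Calr and Slc25a4, the 3 lowest adjusted p-values per list in 4 comparisons, the first markers of each list, the neighbours on chromosome 8 and the most similar genes. The neighbours of Calr were added after the values were seen, as was the difference of vector effects between null genotypes. Members and lists were chosen with earlier results of these data known. Promoter windows and positions come from RefSeq (GRCm38.p6), in which all 10 genes matched. Alternatives used DESeq2 1.42.0, limma 3.58.1, other scaling, filters, covariates and samples.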

Additional observations from a re-analysis of the deposited data

Results flagged for a closer look

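Members were checked for a heart far from the rest of its group in the groups of 4 hearts, and for effects that differ between groups. Of 24 gene and group pairs tested, Calr and Slc25a4 included, 2 held such a heart, and chance flags about 1 group in 20. Canx in wild type heart 70 with the control vector had 218.6 CPM, below the other 3 at 246.6 to 251.1 CPM. Heart 70 is also the lowest of its group for Hspa5, Hsp90b1, Pdia3, Pdia4, Xbp1 and Dnajb9, and the highest for Herpud1. It alone of the 4 lies in the tables that it shares with Ant1-/- ND6 hearts. Pdia6 in Ant1-/- heart 27 with the Ant1 vector had 32.8 CPM, below the other 3 at 49.5 to 52.6 CPM. Heart 27 lies in tables that it shares only with heart 37.

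The vector effect on Pdia6 differed between Ant1-/- ND6 and Ant1-/- hearts by -0.80 on the log2 scale (adjusted p = 0.0464 by edgeR), in a test added after the values were seen. Pdia6 was higher with the Ant1 vector in 3 of 4 Ant1-/- hearts, those other than heart 27, than in all 3 hearts with the control vector, while in Ant1-/- ND6 hearts 2 of 3 lay below the whole control vector range. Those 2 were heart 37 (30.5 CPM) and heart 8 (33.2 CPM), and heart 8 had a Slc25a4 level of only 0.732 CPM.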

How the results depend on the processing

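The count of 9 genes called lower in null hearts was 9 in every alternative and without any single heart, except 7 with the library table in the model. Over these fits Pdia6 ranged from -0.73 to -0.58 on the log2 scale. Without a single heart the counts ran from 2 to 6 in Ant1-/- against wild type with the control vector and from 0 to 5 with the Ant1 vector. They ran from 0 to 1 in Ant1-/- ND6 against wild type with the control vector and from 5 to 9 with the Ant1 vector. For Ant1-/- ND6 against Ant1-/- with the Ant1 vector the range was 0 to 2, for the vector in Ant1-/- hearts 0 to 3 and for the difference of vector effects 0 to 4.

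Counts that left 1.5 times their value were these. In Ant1-/- against wild type with the control vector, 5 became 2 with Xist or the liver marker sum as covariate and 8 with single libraries in voom. With the Ant1 vector, 3 became 0 with the liver marker sum, 1 without the low-count filter, 0 with only the compared groups, 9 with single libraries and 1 with the library table, where the 1 was Herpud1 and not one of the 3. In Ant1-/- ND6 against wild type with the control vector, 1 became 3 with hearts 61 and 91 as control vector, and 2 with DESeq2, without hearts 27 and 37, with only the compared groups and in both voom fits. With the Ant1 vector 7 became 3 with the library table. In Ant1-/- ND6 against Ant1-/- with the control vector, 0 became 1 with DESeq2, without hearts 27 and 37, with hearts 61 and 91 as control vector and with libraries 80a and 80b, 2 with only the compared groups and with single libraries, and 8 with the library table. With the Ant1 vector 0 became 2 with DESeq2, 3 without hearts 27 and 37 and in both voom fits, and 1 with the liver marker sum. For the vector in Ant1-/- hearts 3 became 1 without the low-count filter and 0 with only the compared groups, and in the other genotypes 0 became 1 with single libraries. The tests of differences between vectors went from 0 to 1 with the library table in Ant1-/- hearts and from 0 to 3 with single libraries in Ant1-/- ND6 hearts. The difference of vector effects went from 1 to 3 with DESeq2 and single libraries, 4 without hearts 27 and 37, 7 with the library table, and 0 with Xist, with hearts 61 and 91 as Ant1 vector and with only the compared groups. The causes were not tested. Over all comparisons and alternatives, the count of all tested genes called left 1.5 times its value in 132 cases and stayed within it in 146. Most of the member counts above stand without the share of all tested genes called in the same fit. No called log2 change of a member turned its sign. CPM on total counts moved 1 of 70 group means by more than its SD. Vector comparisons could not be fitted with the library table. Leaving out heart 8 was added after the data were seen.

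No paired analysis was possible because groups set directly against each other share no title number. Title numbers 20, 21 and 22 recur in Ant1-/- hearts with the Ant1 vector and in Ant1-/- ND6 hearts with the control vector. They were read as separate hearts because the genotypes differ.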
